A study of Mus musculus with 2 samples.

Results

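Vascular smooth muscle cells and pericytes, together called mural cells, were followed through 10 marker genes in the infarcted and the sham-operated mouse heart: Rgs5, Myh11, Notch3, Cspg4, Lmod1, Mcam, Smtn, Mylk, Pdgfrb and Pdgfb. They comprised every probe set (a group of oligonucleotides read as 1 value) whose annotation gave 1 of these genes and no other. The rule returned 20 of the 45101 probe sets on the array, and all 10 of the 18193 genes named by it. Male C57BL/6J mice, 10 weeks old, had the left anterior descending coronary artery tied permanently (infarct) or underwent the operation with the artery untied (sham). Whole hearts were taken 3 days later, with no allele or drug in either group, and RNA of 3 hearts was mixed per group and measured on 1 array. The labels do not separate scar, border and remote muscle, and pooling hides the differences between mice. No spread between samples exists, so each difference below lies between 1 infarct pool and 1 sham pool, carries no p-value, and is given as infarct minus sham on the log2 scale.

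Mural cells wrap the endothelial tube. Endothelial cells release the growth factor PDGF-B, which binds the receptor PDGFR-β on mural cells and recruits them, while the receptor NOTCH3 receives ligands from endothelial cells and supports smooth muscle identity. Smooth muscle cells of arteries contract through a smooth muscle myosin that is switched on by phosphorylation of its light chain, whereas pericytes of capillaries carry few contractile proteins. In the injured heart the same contractile actin and its partners are also made by myofibroblasts, so that no single gene stands for a mural cell.

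The markers did not move together. Mcam, an adhesion molecule of mural and endothelial cells, was 2.99-fold higher in the infarct pool, whereas the smooth muscle myosin heavy chain gene Myh11 was 1.71-fold lower and the pericyte gene Rgs5 differed by -0.58. The other 7 genes differed by 0.48 or less in either direction, and their signs were mixed. Of the 10 genes, 5 lay above 0 and 5 below, with a median of -0.043. Over all 11961 genes bright enough to be compared (value at or above the array median in at least 1 pool), 49.5% lay above 0. Below 0 lay 5962 of them, and the median was 0.0. Less RNA of a marker per cell and fewer cells that carry it cannot be told apart in whole hearts.

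At a threshold of 1.5-fold (0.58 on the log2 scale), 1 of the 10 genes was higher, against 10.3% of all genes compared, and 1 was lower, against 6.32%. At 2-fold, Mcam alone was higher (3.73% of all genes) and none was lower (1.26% of all genes). With 10 genes, each of these counts lay within 1 gene of what the background share gives. Rgs5, 1.497-fold lower, fell just short of the threshold of 1.5-fold and did not count among the lower genes. Counted by probe set, 3 of the 20 were at least 1.5-fold lower, namely 1 of Myh11 and 2 of Rgs5. The 1 that was at least 1.5-fold higher was that of Mcam. Those 2 of Rgs5 read the same gene, and the 20 include probe sets dim in both pools. No share over all probe sets was computed, so these counts have no background beside them.

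**Figure D1:**
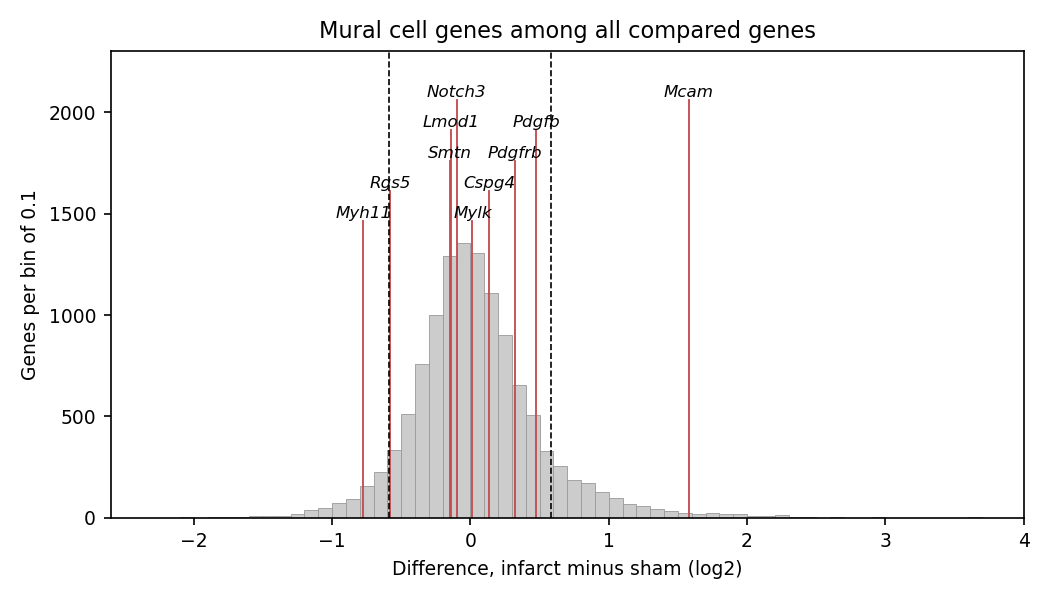
Number of genes (y axis, per bin of 0.1) against their difference between the infarct pool and the sham pool (x axis, log2) for the 11961 genes compared, with a red line for each mural cell gene and dashed lines at 1.5-fold. Mcam (1.58) lies far to the right of the other 9 genes, Myh11 (-0.77) lies left of the lower dashed line, and Rgs5 (-0.58) lies on it.

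Values on these arrays hold only relative to the zero of the scale, and the controls did not share one. The mean difference of the 9 housekeeping genes measured was 0.37, but they ran from -0.44 (Sdha) to 1.12 (Gusb) and were no steady reference. The 18 hybridisation controls, spiked in as foreign transcripts before hybridisation, lay 0.32 lower on average in the infarct pool. The 24 poly-A controls, spiked in earlier, lay 0.057 higher. The array medians were 6.36 (sham) and 6.35 (infarct). Centring on the housekeeping genes moved the median of all genes by -0.37 and centring on the hybridisation controls by 0.32. Mcam and Pdgfb remained above 0 and Myh11 and Rgs5 below 0 under every scaling tried, while each of the other 6 markers crossed 0 under at least 1 of them. As a measure of RNA integrity, the differences at the 5′ and the 3′ end were 0.67 and 0.70 for Actb and 0.053 and 0.051 for Gapdh.

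The stretches of genome just before the starts of Rgs5 and Mcam are shown because these genes, both used as pericyte markers, lay on opposite sides of 0. Each run holds the 250 bases upstream of the annotated start (RefSeq, GRCm38.p6, plus strand, 5′ to 3′), at chr1:169655251-169655500 for Rgs5 and at chr9:44134408-44134657 for Mcam. Capitals mark the dinucleotide CG.
Rgs5: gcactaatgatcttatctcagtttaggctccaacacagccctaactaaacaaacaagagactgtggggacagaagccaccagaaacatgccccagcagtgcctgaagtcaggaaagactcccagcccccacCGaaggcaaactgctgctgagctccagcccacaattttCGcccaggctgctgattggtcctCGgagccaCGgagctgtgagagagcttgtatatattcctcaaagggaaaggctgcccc
Mcam: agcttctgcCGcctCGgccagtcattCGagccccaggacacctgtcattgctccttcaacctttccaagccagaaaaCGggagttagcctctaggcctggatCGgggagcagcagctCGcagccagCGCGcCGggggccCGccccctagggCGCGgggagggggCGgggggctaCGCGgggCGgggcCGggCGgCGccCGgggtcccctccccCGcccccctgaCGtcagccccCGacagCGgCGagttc

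The Rgs5 stretch held 4 CG dinucleotides and 53.6% G and C, and that of Mcam held 25 and 73.6%. Across 32851 such stretches the medians were 6 and 52.4%, and 89.3% of stretches had fewer CG dinucleotides than that of Mcam. Of the 10 markers, 7 had an entry that was used (Cspg4, Lmod1, Mcam, Mylk, Notch3, Rgs5 and Smtn). A search on both strands found GGGCGG, a core bound by SP1, in 5 of the 7 (32.7% of all stretches), among them Mcam with 5 matches. The letters TGACGTCA, the cyclic AMP response element, were in 1 of the 7 (1.55% of all stretches), with the match in Mcam starting 29 bases before the start of the gene. TGANTCA (AP-1) was found in Mylk alone (6.75% of all stretches), and TGGGAA, the core bound by the Notch factor RBPJ, in Smtn alone (21.6%). The CArG box bound by SRF, which drives many contractile genes, was in 0 of the 7 and in 1.47% of all stretches. No matches of different motifs overlapped in these 7 stretches. A match describes the letters in this window only.

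Among the 4 contractile genes of the set, Myh11 was lower, and Mylk, Smtn and Lmod1 hardly differed. Myh11, which encodes the heavy chain made almost only by smooth muscle, had a value of 8.76 in the sham and 7.99 in the infarct pool, a difference of -0.77. Only 3.01% of the genes compared had a lower difference. Its other probe set was dimmer than the array median in both pools (5.01 and 4.83), and its difference was -0.18. Mylk encodes the kinase that phosphorylates the light chain of this myosin. Its brightest probe set read 9.21 in the sham and 9.23 in the infarct pool (difference 0.015). Another gave 8.46 and 8.62 (0.16), and the third, dim one 6.06 and 6.19 (0.14), so that none of the 3 departed from 0 by more than the SD of 0.23 between probe sets of the same gene (pooled over 5190 genes with at least 2 bright probe sets; it covers the probes and not the mice).

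Smtn and Lmod1 complete this group, and both sat slightly lower in the infarct pool. The former encodes smoothelin, a protein of the actin filaments of contractile smooth muscle, and had 9.40 in the sham and 9.25 in the infarct pool (difference -0.15). The latter encodes leiomodin 1, which nucleates actin filaments in smooth muscle, and had 6.94 and 6.79 (-0.14). Both differences are smaller than the SD between probe sets, and each gene had only 1 probe set. After centring on the hybridisation controls both lay above 0, at 0.17 for Smtn and 0.18 for Lmod1.

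The other genes listed for smooth muscle lay mostly above 0, unlike Myh11. Of 17 bright enough, 12 lay above 0 and 5 below, 4 were at least 1.5-fold higher (10.3% of all genes) and 3 at least 1.5-fold lower (6.32% of all genes), and the median was 0.30. After centring on the housekeeping genes the median was -0.075, 6 of the 17 lay above 0, 1 was at least 1.5-fold higher (4.16% of all genes under that centring) and 3 lower (26.4%). The median was 0.11 with no filter on dim probe sets. Cald1, which encodes the actin-binding caldesmon, was highest, with 11.15 in the sham and 12.22 in the infarct pool (1.07, and 0.60 to 1.18 over 4 bright probe sets). The myosin light chain gene Myl9 (0.88) belonged to this group as well. Acta2 (0.54) and Tagln (0.80), named after their values were seen because myofibroblasts make them too, also lay above 0. By the brightest probe set of each gene, the lowest was Pcp4l1, with 10.20 and 9.05 (-1.15). Next was Itga8, an integrin subunit gene of smooth muscle and other mesenchymal cells, with 8.20 and 7.09 (-1.11). Over their bright probe sets Synpo2 ran from -1.47 to -0.094 and Tpm1 from -0.35 to 0.95 (both named after their values were seen). The list thus held differences as far below 0 as above it. The part of cells other than smooth muscle in these values, cardiomyocytes included, was not tested.

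Genes around the myosin switch went both ways. Besides Mylk, the family holds the cardiac kinase gene Mylk3, which had 11.64 in the sham and 10.94 in the infarct pool (-0.70), and Mylk4, which had 10.25 and 8.42 (-1.83). Mylk2, the kinase gene of skeletal muscle, was too dim to be compared. Mylk, the form of smooth muscle and non-muscle cells, was therefore the only 1 of the 3 bright genes of this family that was not lower by 1.5-fold or more. The non-muscle myosin gene Myh9 was higher (11.45 and 12.49, difference 1.04). Of the 14 bright genes of this list, 3 were at least 1.5-fold higher (10.3% of all genes) and 3 lower (6.32%). The median was 0.25, and -0.12 after centring on the housekeeping genes. This list shares Myl9, Ppp1r12b and Ppp1r14a with the smooth muscle list. Among relatives of Lmod1 and Smtn, the striated muscle genes Tmod4 (-1.60), Lmod3 (-1.05) and Lmod2 (-0.46) were lower and Tmod3 (0.47) was higher. Of 6 bright genes of that list, 5 lay below 0 (5962 of all 11961 genes).

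Regulators of the smooth muscle programme showed small differences. Of 12 bright genes, 9 lay below 0 (5962 of all 11961 genes). The median was -0.14, and it was 0.17 after centring on the hybridisation controls. At least 1.5-fold higher was 1 of the 12 (10.3% of all genes), and 0 were lower by that fold (6.32%). That gene was Foxs1, a forkhead factor gene of mural cells, with 6.54 in the sham and 7.43 in the infarct pool (0.90). Nr2f2 (-0.55), which specifies veins, and Ebf1 (-0.47) were the lowest. Myocd, the coactivator of SRF that drives the contractile genes, differed by -0.24 and Srf by -0.092 (both named after their values were seen).

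**Figure D2:**
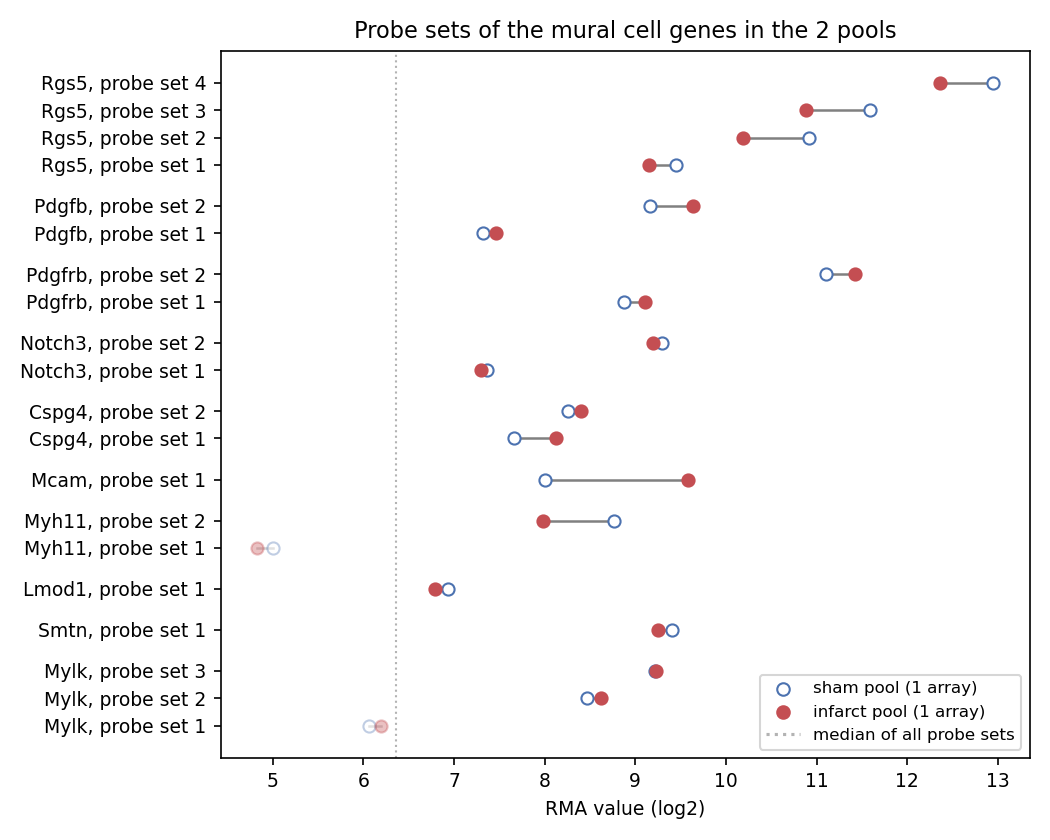
Value of each of the 20 probe sets (x axis, log2) in the sham pool (open blue) and the infarct pool (red), with the probe sets of a gene numbered from dim to bright and the 2 that were dim in both pools drawn faint. All 4 probe sets of Rgs5 lie lower in the infarct pool, with differences from -0.72 to -0.30, and the single probe set of Mcam spans the widest gap.

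Of the genes in this set used as pericyte markers, Rgs5 was lower and Mcam, shared with endothelial cells, was higher. Cspg4 differed little by its brightest probe set (0.14) and more by the other (0.46). Pdgfrb (0.32), also a pericyte marker, is described below with its ligand. Rgs5 encodes a regulator that shortens signalling by G protein-coupled receptors and is among the most specific pericyte transcripts. Its brightest probe set read 12.95 in the sham and 12.36 in the infarct pool (-0.58). The next, which can bind several transcripts, gave 11.59 and 10.88 (-0.71), and another 10.91 and 10.19 (-0.72). The fourth, whose oligonucleotides can also bind other transcripts, gave 9.45 and 9.15 (-0.30). All 4 were thus lower in the infarct pool, and 6.39% of the genes compared had a lower difference than the brightest. After centring on the hybridisation controls the difference was -0.26, and after centring on the housekeeping genes it was -0.95.

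Cspg4 encodes the proteoglycan NG2 on the surface of pericytes. Its brightest probe set read 8.26 in the sham and 8.40 in the infarct pool (0.14), and the other 7.66 and 8.12 (0.46). They shared a sign but lay 0.32 apart, and the brightest gave -0.23 after centring on the housekeeping genes. Mcam had a value of 8.00 in the sham and 9.58 in the infarct pool, a difference of 1.58. Its product, also known as CD146, is an adhesion molecule and a co-receptor on endothelial and mural cells. Only 1.07% of the genes compared (128 of 11961) had a higher difference. The size was 6.93 times the SD between probe sets, which comes from other genes and does not cover the spread between mice or arrays. The difference ranged from 1.21 (centred on the housekeeping genes) to 1.90 (centred on the hybridisation controls). Mcam rests on a single probe set, which can bind several transcripts of the gene, and no second one was at hand to compare it with.

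Other genes enriched in pericytes lay mostly below 0, on the side of Rgs5 and not of Mcam. Of 16 bright enough, 13 lay below 0 (5962 of all 11961 genes). At least 1.5-fold lower were 7, where 6.32% of all genes were, while 0 passed that fold upwards (10.3% of all genes). The median of the list was -0.37, and it ranged from -0.74 after centring on the housekeeping genes to -0.055 after centring on the hybridisation controls. It was -0.62 with the 75th percentile as the filter (11 genes) and -0.19 with no filter on dim probe sets. The lowest were Colec11, a collectin gene, with 10.28 in the sham and 9.32 in the infarct pool (-0.96), and Abcc9, the regulatory subunit of a potassium channel closed by ATP, with 12.09 and 11.17 (-0.93, and -1.25 to -0.93 over 3 probe sets). P2ry14, a receptor gene for nucleotide sugars, followed with 7.13 and 6.25 (-0.87), of which the latter is below the array median, so that it entered the comparison through the sham pool. Also at least 1.5-fold lower, and named after their values were seen, were Vtn (-0.79), the channel gene Kcnj8 (-0.66), the angiopoietin gene Angpt1 (-0.62) and Steap4 (-0.62). Kcnj8 and Abcc9 encode partners in the same channel. Of the 3 genes above 0, Cd248, the endosialin gene of pericytes and fibroblasts, was the highest (8.10 and 8.62, difference 0.52). The others were Ndufa4l2 (0.34) and Higd1b (0.20). Gucy1b1 (-0.0043), Pde5a (-0.035), Anpep (-0.048) and Rgs4 (-0.051) lay near 0. All but Cd248 of these were named after their values were seen. After centring on the hybridisation controls, which put the median of all genes at 0.32, 8 genes lay on each side of 0. Of the 16, 2 were at least 1.5-fold higher (24.7% of all genes under that centring) and 2 at least 1.5-fold lower (1.88%). Abcc9 is also expressed by cardiomyocytes, whose own markers, all 10 of them bright in both pools, had a median of -0.16 (9 below 0, mean value 14.21 in the sham and 13.99 in the infarct pool). With the bright probe sets of each gene averaged, the cardiomyocyte median was -0.39 and that of the pericyte genes -0.29, and with probe sets that can bind several transcripts left out, where the gene had another, they were -0.29 and -0.59. Which of the lists lay lower thus depended on the choice of probe sets. The part of cardiomyocytes in the lower values was not tested.

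**Figure D3:**
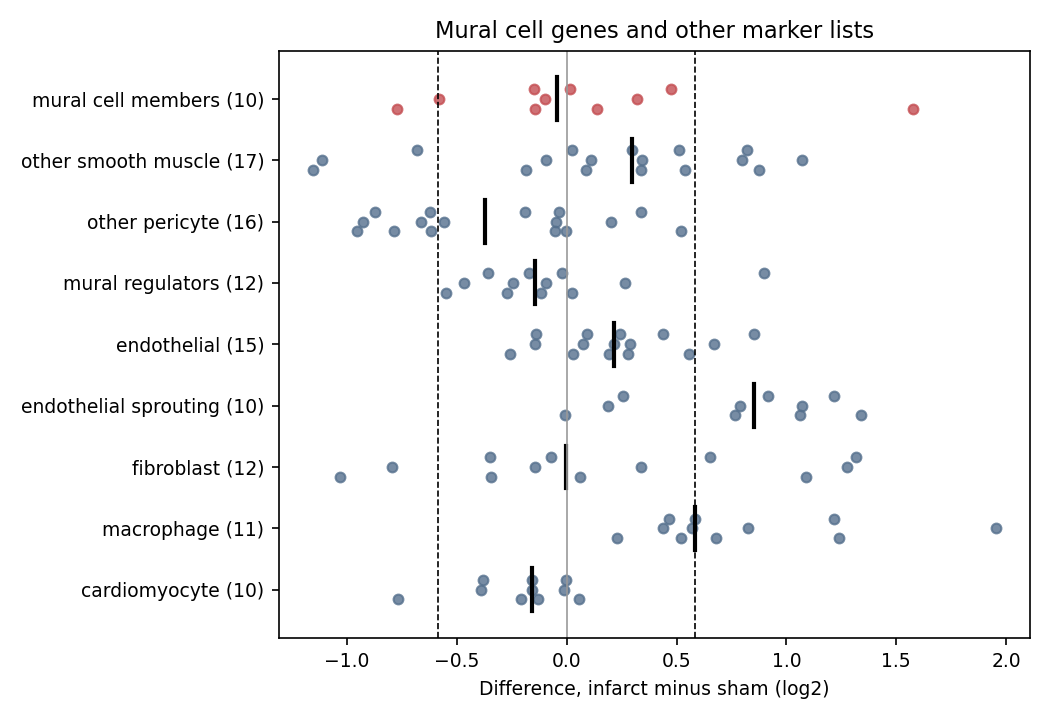
Difference between the infarct pool and the sham pool (x axis, log2) of every gene bright enough in 9 lists (y axis, number of genes in brackets), 1 point per gene, with the median of each list as a black bar and dashed lines at 1.5-fold. The pericyte genes lie mostly left of 0 (median -0.37), the endothelial sprouting genes right of it (0.85), and the mural cell markers on both sides with Mcam at 1.58.

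Mcam is shared with endothelial cells, so their markers are set beside it. Of 15 endothelial markers, 12 lay above 0 (49.5% of all genes) and 2 were at least 1.5-fold higher (10.3% of all genes). Their median was 0.22, or -0.15 after centring on the housekeeping genes. The mean value was 9.40 in the sham and 9.63 in the infarct pool. Highest were Plvap, the gene of the diaphragm of fenestrated vessels, with 9.02 and 9.87 (0.85), the tight junction gene Cldn5 (0.67) and Pecam1 (0.56). Flt1, a receptor gene for VEGF, was lowest (-0.26). Of 10 genes of sprouting endothelium, 7 were at least 1.5-fold higher (10.3% of all genes) and 4 at least 2-fold (3.73% of all genes), with a median of 0.85. Esm1 entered only through the infarct pool, and without it, by a filter on the mean of both pools added after the data were seen, 6 of 9 were at least 1.5-fold and 3 at least 2-fold higher, with a median of 0.79. Over all 10, after centring on the housekeeping genes, 4 were at least 1.5-fold higher (4.16% of all genes) and 0 at least 2-fold, with a median of 0.48. Among them Pgf, the placental growth factor gene, had 7.39 and 8.73 (1.34), Apln, the ligand gene of the apelin receptor, had 7.93 and 9.15 (1.22), and Esm1 was 1.07 higher, although dim in the sham pool (5.38). Vegfa lay at -0.0069. The difference of Mcam was thus above that of every bright gene in the smooth muscle, pericyte, endothelial and sprouting lists on the values as deposited. How far endothelial cells carried it was not tested.

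The ligand and the receptor that bring mural cells to endothelium were both slightly higher. By its brightest probe set Pdgfb had 9.16 in the sham and 9.64 in the infarct pool (0.48), and 7.31 and 7.47 by the other (0.15). These lay 0.33 apart. Pdgfrb had 11.11 and 11.43 (0.32) by its brightest probe set and 8.88 and 9.11 (0.23) by the other, so that its probe sets lay close together. After centring on the housekeeping genes Pdgfb lay at 0.11 and Pdgfrb at -0.049. After centring on the hybridisation controls, which shifts every gene by 0.32, both were at least 1.5-fold higher (0.79 and 0.64). So were 24.7% of all genes under that centring, and neither gene passed that fold as deposited.

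Pdgfb is also made by platelets and macrophages. All 11 macrophage markers lay above 0 (49.5% of all genes), and 5 were at least 1.5-fold higher (10.3% of all genes). Their median was 0.58, with a mean value of 9.89 in the sham and 10.68 in the infarct pool. Msr1 (1.95), Cd68 (1.24) and Itgam (1.22) were highest. Platelet markers had a median of -0.057 over 6 genes and a mean value of 7.51 and 7.89, with Pf4 (1.04) and Ppbp (1.83, dim in sham) higher and Gp9 (-0.36) lowest. The part of either cell type in the value of Pdgfb was not tested.

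Within the PDGF family the largest difference belonged to another ligand. Pdgfc, whose product binds mainly the receptor PDGFR-α, had 8.04 in the sham and 8.93 in the infarct pool (0.89, and 0.84 by its other bright probe set). Pdgfa (0.18), Pdgfd (-0.069), the receptor gene Pdgfra (-0.14) and the receptor-like gene Pdgfrl (0.20) all differed by less than the SD between probe sets. The probe sets of Pdgfra ran from -0.14 to 0.28. Of the 15 other genes of the pathway, adaptors included, 8 lay above 0, 1 was at least 1.5-fold higher (10.3% of all genes) and 0 lower (6.32%). The median was 0.077, and -0.29 after centring on the housekeeping genes. Crk (0.48) and the regulatory subunit gene Pik3r1 (-0.42) were the adaptors farthest from 0. Pdgfra also marks fibroblasts, whose 12 markers had a median of -0.0042 and ran from Fbln1 (-1.03) to Mfap5 (1.32), with Postn (1.28) and Thy1 (1.09) next below the latter.

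Notch3, the Notch receptor of mural cells, was nearly level, whereas Notch4 was the highest gene of the pathway. Its brightest probe set read 9.29 in the sham and 9.19 in the infarct pool (-0.10), and the other 7.36 and 7.30 (-0.067). Both differences are small beside the SD between probe sets, and the brighter gave 0.22 after centring on the hybridisation controls. Notch4, the receptor of endothelial cells, had 7.91 and 8.91 (1.00, or just under 2-fold, by its 1 bright probe set). Notch1 (0.18) and Notch2 (0.20) lay above 0, by less than the SD between probe sets. Of the ligands, Jag1 (0.24), through which endothelial and smooth muscle cells signal to Notch3, and Dll4 (0.26) lay above 0, and Jag2 (-0.33) and Dll1 (-0.12) below. The feedback inhibitor gene Nrarp was higher (8.29 and 9.12, difference 0.83, and 0.40 by its other probe set), as was the glycosyltransferase gene Lfng (7.05 and 7.57, 0.52). Hes1, a target gene, was lowest (8.85 and 8.44, -0.42). Heyl, a target known from smooth muscle, differed by 0.39 to 0.71 over 3 probe sets, and Hey1 by -0.070 (both named after their values were seen). Over 19 bright genes of the pathway 13 lay above 0, 2 were at least 1.5-fold higher (10.3% of all genes) and 0 lower (6.32%). The median was 0.20, and -0.17 after centring on the housekeeping genes.

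**Figure D4:**
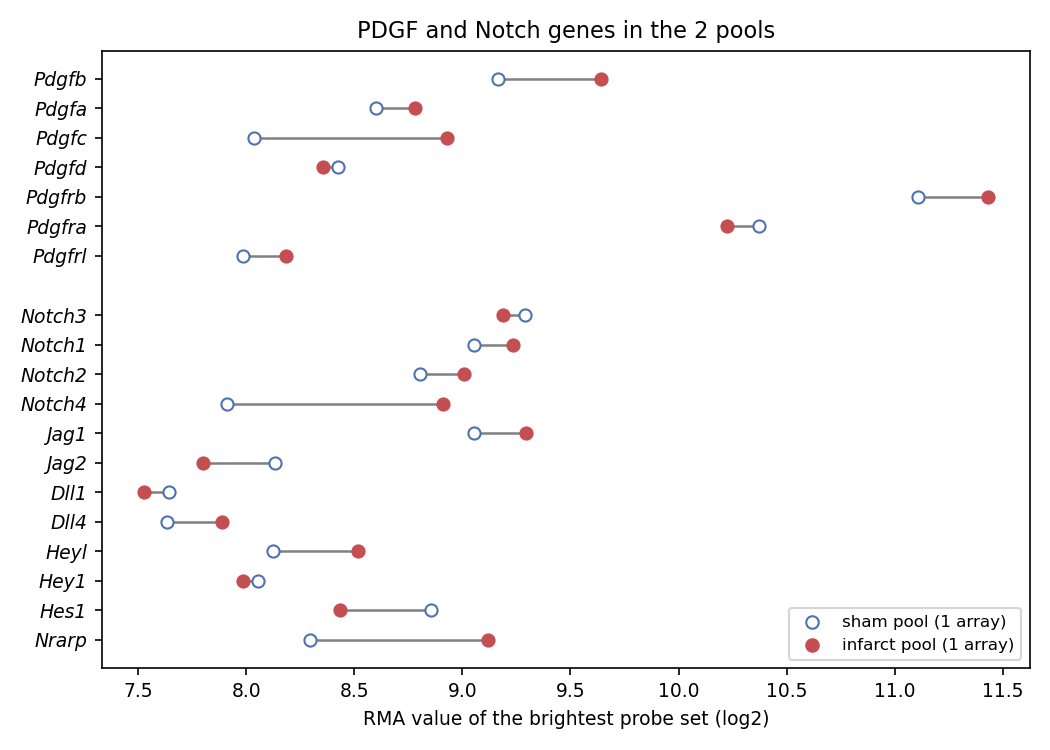
Value of the brightest probe set (x axis, log2) in the sham pool (open blue) and the infarct pool (red) for genes of the PDGF family (upper group) and the Notch pathway (lower group); levels of different genes are not comparable. Pdgfc (0.89) and Notch4 (1.00) show the widest gaps, while Notch3 (-0.10) shows one of the narrowest.

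Relatives of Rgs5 and markers of nerve sheath, which can also carry Cspg4 and Mcam, filled in the comparison. Of the small RGS genes, 5 of 8 were bright enough: Rgs18 (0.78), a gene of platelets and myeloid cells, entered only through the infarct pool and was dim in the other, and Rgs2 (9.90 and 9.44, difference -0.45), a regulator of vascular tone, was lowest, with Rgs16 at 0.37. The median was 0.28, or 0.11 over the 4 without Rgs18, and -0.094 over all 5 after centring on the housekeeping genes. Only 3 Schwann cell markers were bright enough, at 0.11 (Sox10), -0.14 (Gfra3) and -0.85 (Cdh19). They had mean values of 7.29 in the sham and 6.998 in the infarct pool, and their part in the values of Cspg4 and Mcam was not tested.

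**Figure D5:**
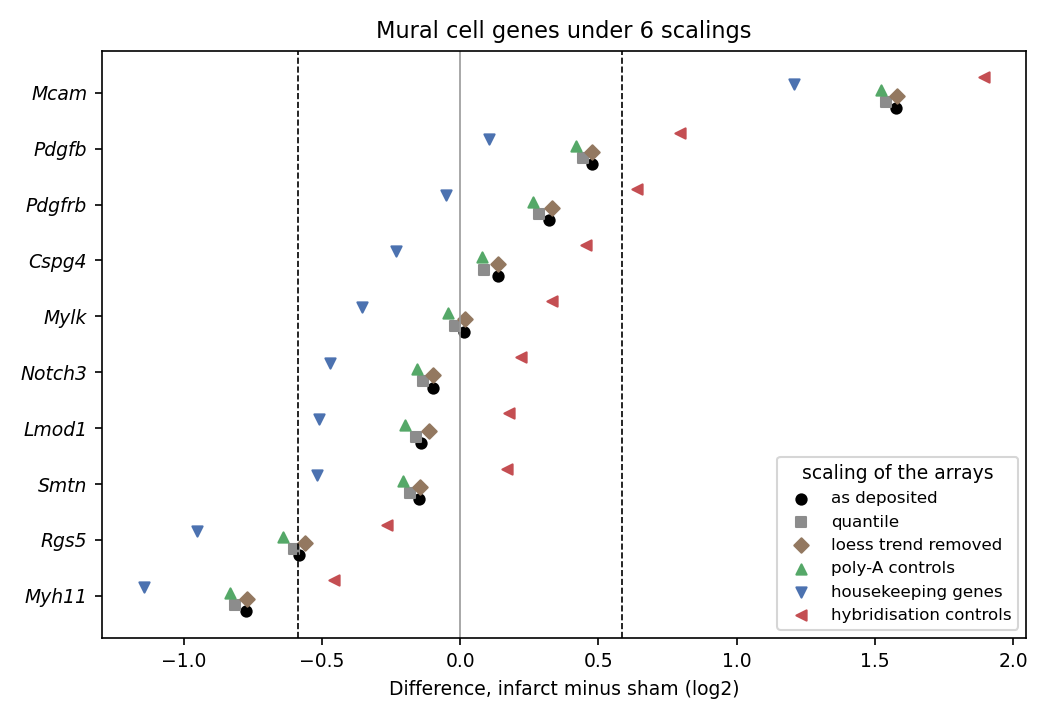
Difference of each mural cell gene between the infarct pool and the sham pool (x axis, log2) as deposited and under 5 other scalings of the arrays (symbols), with dashed lines at 1.5-fold. Mcam (1.21 to 1.90) and Pdgfb (0.11 to 0.79) stay right of 0 and Rgs5 and Myh11 stay left of it under all 6, while the other 6 genes cross 0.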

How the data were processed

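Per the labels, the authors extracted RNA with ISOGEN and an RNeasy kit, mixed 3 hearts per group and hybridised 1 GeneChip Mouse Genome array per pool. The deposited values are RMA values on the log2 scale: background-corrected, normalized between the 2 arrays and summarised per probe set (software version not given in the sources used here). RMA forces similar distributions on both arrays, hiding any change in total mRNA, and can compress bright values. The number of arrays limits precision.

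Probe sets were named through the platform annotation: 34945 paired with 1 symbol, 932 with several and 9160 with none, besides 64 controls. By Entrez identifier 34741 matched RefSeq (GRCm38.p6). For each gene the probe set with the highest mean value was used, and it was compared if this reached the array median in at least 1 pool. No test was possible. Lists were described by counts and medians beside those of all genes, and 6 genes stood in more than 1 list. Named genes were the markers and their close families, plus the 3 largest differences of each list and the largest of opposite sign. Members and lists were chosen with earlier results of these data known. Alternatives were 6 scalings (loess span 0.4), other probe set choices, filters, a 2-fold threshold and means; a filter on the mean of both pools was an addition, chosen after seeing the data. The procedure was tested on simulated data. Python 3.11.15, numpy 2.4.6, pandas 2.3.3, statsmodels 0.14.6 and matplotlib 3.10.9 were used.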

Additional observations from a re-analysis of the deposited data

How the results depend on the processing

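No paired analysis was possible because each group was 1 array, and for the same reason no sample could be left out. The zero of the scale set most of what follows. Centring on the housekeeping genes put the median of all genes at -0.37, and centring on the hybridisation controls put it at 0.32. Each is 1 shift of every gene, which turns the sign of small medians by itself. The median of the 10 markers was -0.41 after centring on the housekeeping genes and 0.28 after centring on the hybridisation controls. After the latter centring 3 markers were at least 1.5-fold higher, where 24.7% of all genes were, and 0 were lower (1.88%). At a threshold of 2-fold 0 were lower. Markers at least 1.5-fold lower numbered 2 (Myh11 and Rgs5) when the arrays were centred on the housekeeping genes (26.4% of all genes) or the poly-A controls (7.96%) or quantile normalized (7.18%). Medians of related lists changed sign after centring on the housekeeping genes for endothelial (-0.15), myosin switch (-0.12), Notch (-0.17), PDGF (-0.29), RGS (-0.094) and smooth muscle genes (-0.075), and after centring on the hybridisation controls for cardiomyocyte (0.16), fibroblast (0.31), platelet (0.26) and Schwann cell markers (0.18) and for regulators of smooth muscle (0.17). The fibroblast median, almost 0, also turned with each array centred on its median (0.0087), with the loess trend removed (0.0060) and with probe sets averaged (0.098), where the PDGF median was 0. The 75th percentile as the filter left 1 platelet gene (1.04) and 2 RGS genes (-0.088), and it removed Lmod1. The remaining values for single markers moved by less than the SD between probe sets in 89 cases and by more in 20. The 20 were those of centring on the housekeeping genes or on the hybridisation controls. Either centring shifts every gene by the same amount (-0.37 or 0.32), which is larger than the SD of 0.23. That tally was thus set by the scalings and not by single markers. No marker past 1.5-fold changed sign.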
